A study of Mus musculus with 4 samples.

Results

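Collagens are the main structural proteins of the extracellular matrix, and 40 collagen genes were measured in the small intestine of mice in which the kinases Lats1 and Lats2 had been deleted from the gut epithelium. They were taken by gene symbol (Col, a number, the letter a, a number) and by level, with at least 10 normalized counts required in at least 2 of the 4 libraries. Of 29011 rows in the deposited table, 45 had such a symbol and 41 of these reached the level. The remaining row, Col4a3bp, encodes a ceramide transport protein and is no collagen, so it was left out of every count of collagens. The 2 Lats1/2 KO libraries were labelled as Lats1/2 knockouts carrying VilCre, a Cre recombinase driven by the Villin promoter and active in intestinal epithelial cells. For the 2 control libraries the study's design text gives floxed Lats1 and Lats2 alleles without Cre, although their genotype label names both genes as deleted. All 4 were made from total RNA of whole small intestine at postnatal day 8. No label ties a sample to a separate animal, so p-values here reflect only how far these samples spread, which may be technical.

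Every collagen is built from chains that wind around each other in a triple helix, and each chain carries a long Gly-X-Y repeat in which glycine recurs at a fixed spacing. Fibrillar collagens form the tensile fibres of connective tissue, type IV collagen forms the sheet under epithelia and around vessels and muscle cells, and type VI collagen forms beaded filaments between them. The remaining collagens decorate fibrils, anchor basement membranes or span cell membranes. In the gut wall most collagen RNA is made by fibroblasts, smooth muscle and endothelium, cells in which Villin-driven Cre is not active, while a few chains, such as those of types VII and XVII, are also made by epithelial cells in skin.

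The repeat can be read directly from the coding sequences of the genes this account turns on, taken from the GENCODE M21 transcripts of GRCm38. Each stretch below is the first 54 bases of the longest unbroken run of codon triplets that start with GGN, the glycine codons, and the capitals mark those codons. They are shown because this repeat is what all collagens share and its unbroken length differs widely among them.
Col7a1: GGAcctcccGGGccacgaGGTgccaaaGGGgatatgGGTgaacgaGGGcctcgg
Col6a3: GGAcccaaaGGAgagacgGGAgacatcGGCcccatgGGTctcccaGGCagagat
Col18a1: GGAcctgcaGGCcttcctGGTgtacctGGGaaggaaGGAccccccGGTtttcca
Col3a1: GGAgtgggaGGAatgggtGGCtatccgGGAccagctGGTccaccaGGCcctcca
The run went on for 344 triplets in Col3a1, a fibril-forming chain, against 75 triplets in Col7a1, 45 in Col6a3 and 30 in Col18a1. Over the classes the longest run was 216 to 344 triplets in fibrillar genes, 39 to 66 in type IV, 37 to 87 in type VI and 23 to 113 in the others, so only the fibrillar genes stood apart. In Col4a3bp it was 2 triplets. The fibrillar genes had many coding exons of exactly 54 bases, 21 to 33 in each, such as 24 of 51 in Col3a1 and 21 of 51 in Col1a1. Type VI genes had 2 or 3 such exons and type IV genes 1 to 3. Among the others the number ran from 0 to 28, with 28 of 63 in Col22a1, 14 each in Col9a1, Col9a2 and Col9a3, and 12 in Col16a1. Col7a1 had 118 coding exons, of which 76 had a length divisible by 9, the length in bases of one Gly-X-Y triplet.

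Sequencing depth was 30517967 and 32361940 reads in the Lats1/2 KO libraries, against 27811313 and 25135964 in the control libraries. Lats1 had 751 and 661 normalized counts in KO libraries, against 2316 and 2560 in controls, so each library had the Lats1 level of its label. Lats2 had 295 and 254 normalized counts in KO libraries, against 273 and 287 in controls, and did not pass; whether its reads lie outside the deleted part was not tested. Changes are log2 values of KO over control from limma on log2(normalized count + 1), with a Benjamini-Hochberg threshold of 0.05 over 16415 tested genes. Of those genes 27.5% passed, with 15.2% higher and 12.3% lower in KO, and the median change of all genes was -0.00.

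Collagen RNA was lower or not distinguishable in KO intestine and in no gene higher past the threshold. By limma, 8 of the 40 collagens fell, which is 20.0% of them, where 12.3% of all tested genes fell. They were Col7a1, Col6a3, Col18a1, Col6a4, Col6a1, Col6a2, Col4a5 and Col3a1. The count of higher collagens was 0 by limma, 0 at an unadjusted p under 0.05, 0 by edgeR and 0 by DESeq2. At an unadjusted p under 0.05, 16 collagens were lower. Over all tested genes, 6776 of 16415 had such a p in either direction. The log2 change was below 0 in 33 of 40, where 50.2% of all tested genes had a change below 0, and the median change of the collagens was -0.26. In 21 of 40, or 52.5%, both KO libraries lay below both controls, and in none did both lie above; over all tested genes the share lying below was 33.4%. Col17a1 was the 1 collagen that reached 10 normalized counts in 1 group only, and without it 8 of 39 were lower, or 20.5%. Without Col17a1, 32 had a change below 0 and 15 were lower at an unadjusted p under 0.05. In 20, or 51.3%, both KO libraries then lay below both controls.

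The fallen collagens were all among those with more reads. Among the 23 collagens with a mean of at least 100 normalized counts, 8 fell, or 34.8%, where 13.7% of all tested genes at that level fell. Among the 17 with a mean under 100, the count was 0 by limma, edgeR and DESeq2, with 2 lower at an unadjusted p under 0.05. The median standard error was 0.35 in the lowest of 5 groups of tested genes by level and 0.07 in the highest, so differences of the size of those in types VI and III were not detectable in the low collagens at this depth. The count of 8 also rested on both KO libraries. It was 2 without KO library 1 (Col7a1 and Col6a3), 2 without KO library 2 (Col7a1 and Col18a1), and 5 with no filter on low genes.

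**Figure D1:**
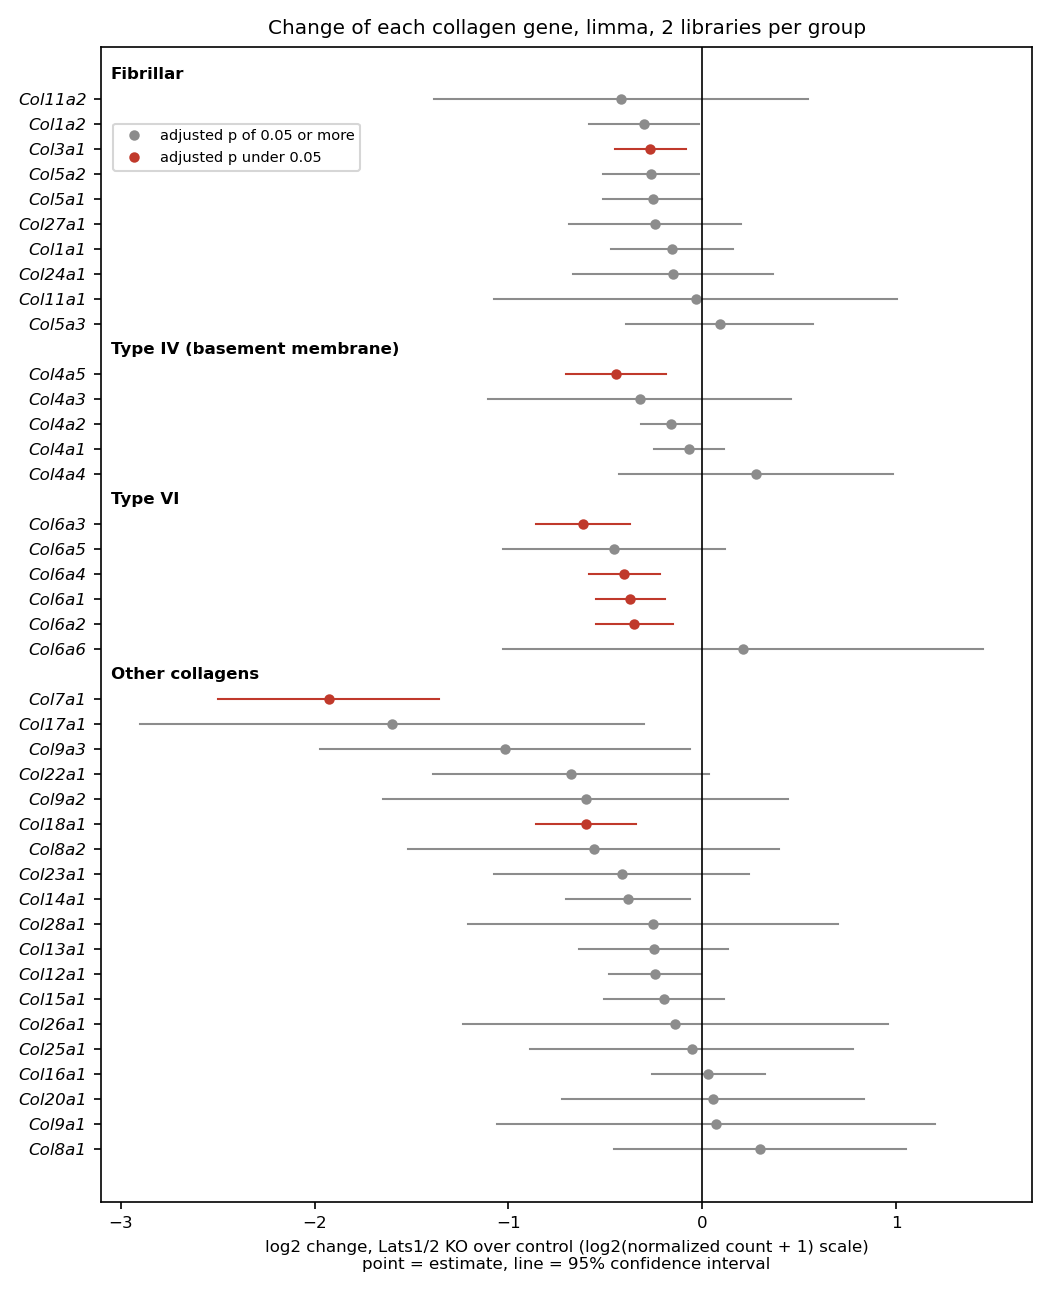
Log2 change of each of the 40 collagens, Lats1/2 KO over control, by class, with the 95% confidence interval from limma (2 libraries per group) as a line. Red marks the 8 genes with an adjusted p under 0.05, all to the left of 0; Col7a1 stands farthest left at -1.93, and the widest intervals belong to genes with few counts.

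Levels can be compared between genes only per length, so they are given here as normalized counts per kilobase (kb) of annotated exon. The exons of all transcripts of a gene were joined, which gave 7464 bases for Col4a1 and 9816 for Col3a1. Their longest coding sequences have 5007 and 4392 bases, so the order of genes can differ with the length used. On this scale Col4a1, the main basement membrane chain, was highest. It had 878 and 833 normalized counts per kb in KO libraries, against 860 and 934 in controls. Col3a1, the fibrillar chain abundant in gut wall, followed with 724 and 684 per kb in KO libraries, against 882 and 814 in controls. In both KO libraries Col4a1 was above Col3a1, while in controls their ranges overlapped. Col6a1, Col4a2, Col1a1, Col18a1 and Col1a2 came next, with control means of 544, 531, 432, 383 and 328 per kb. Col7a1 was a low gene on this scale, with a mean of 8.70 per kb in KO libraries, against 34.1 in controls.

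**Figure D2:**
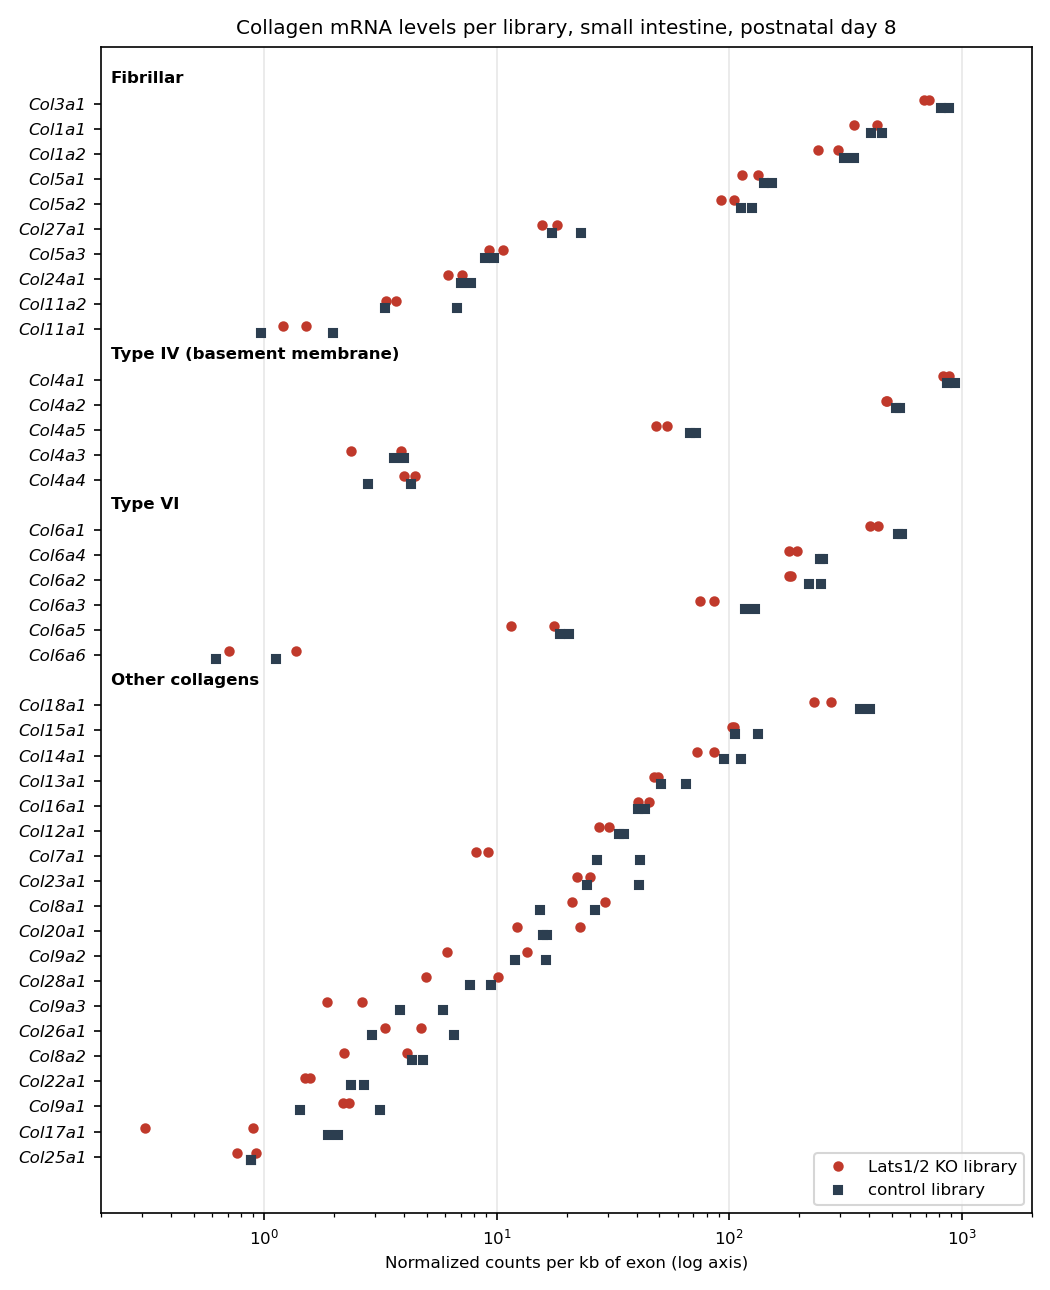
Normalized counts per kb of exon (log axis) of each collagen in each library, with the 2 KO libraries as red circles above the 2 control libraries as dark squares, by class. Col4a1 and Col3a1 lie farthest right; the red circles of Col7a1, at 8.18 and 9.22, lie well left of its squares at 41.3 and 26.9.

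Col7a1, whose product assembles into the anchoring fibrils that tie the basement membrane to the tissue beneath, had the largest change of any collagen. It had 84.2 and 94.9 normalized counts in KO libraries, against 424 and 277 in controls. Both KO values were below both controls, and the 2 controls differed from each other more than the 2 KO libraries did. The log2 change was -1.93 ± 0.23 (SE), or 3.80-fold lower, with an adjusted p of 0.0040 by limma and a 95% interval of -2.50 to -1.36. It was past the threshold under each alternative run, and its change lay between -2.23 and -1.62 when 1 library was left out. The gene (ENSMUSG00000025650) lies at chr9:108953586-108984875 on the plus strand of GRCm38.

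Type VI collagen fell in 4 of its 6 chains, where 12.3% of all tested genes fell. The counts were 1 of 10 fibrillar, 1 of 5 type IV and 2 of 19 other collagens. At an unadjusted limma p under 0.05, 4 type VI, 4 fibrillar, 2 type IV and 6 other collagens were lower. Such a p was reached by 6776 of the 16415 tested genes in either direction. Whether the classes differ was not tested. Col6a1, Col6a2 and Col6a3 encode the chains of the common heterotrimer, and Col6a4, Col6a5 and Col6a6 encode chains that can take the place of the Col6a3 chain. Col6a3, the longest of these, had 1027 and 899 normalized counts in KO libraries, against 1545 and 1400 in controls. Its log2 change was -0.61 ± 0.10 (SE; adjusted p 0.0095), or 1.53-fold lower. Col6a1 had 1915 and 1770 in KO libraries, against 2431 and 2337 in controls (log2 change -0.37 ± 0.07, adjusted p 0.0167).

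For Col6a2 the values were 1540 and 1508 normalized counts in KO libraries, against 2059 and 1836 in controls (log2 change -0.35 ± 0.08, adjusted p 0.0276). Col6a4, a pseudogene in humans but a full gene in the mouse, had 1674 and 1533 in KO libraries, against 2084 and 2153 in controls (log2 change -0.40 ± 0.07, adjusted p 0.0143). In these 4 genes neither KO library reached the lower control. Col6a5 had 167 and 108 normalized counts in KO libraries, against 194 and 176 in controls, a log2 change of -0.45 that did not pass (adjusted p 0.195). Col6a6 was near the level minimum, with 6.48 and 12.7 in KO libraries, against 10.4 and 5.71 in controls, and its groups overlapped. The 4 calls of type VI rested on both KO libraries: without KO library 1 the count was 1, and without KO library 2 it was 0.

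Among the basement membrane chains Col4a5 fell and the other 4 did not pass. Col4a1 and Col4a2, the pair found in nearly all basement membranes, were the highest of these chains per kb. Col4a1 had 6551 and 6217 normalized counts in KO libraries, against 6419 and 6970 in controls, and the 95% interval of its change, -0.07, ran from -0.25 to 0.11. Col4a2 had 3168 and 3108 in KO libraries, against 3441 and 3592 in controls, so the groups did not overlap, but its change of -0.16 missed the threshold (adjusted p 0.105). Col4a5, a chain of the more restricted networks, had 327 and 363 in KO libraries, against 482 and 457 in controls (log2 change -0.45 ± 0.10, adjusted p 0.0292). That call was lost when any 1 of the 4 libraries was left out, with adjusted p of 0.0542 to 0.147. Col4a3 and Col4a4, the partners of Col4a5 in kidney, were low and overlapped between groups. Col4a6, the partner of Col4a5 in smooth muscle, stayed below the level minimum, with 7 and 5 reads in KO libraries, against 1 and 3 in controls.

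The multiplexins Col18a1 and Col15a1 are basement membrane proteoglycans, and endostatin is cut from the end of the Col18a1 chain. Col18a1 had 1626 and 1926 normalized counts in KO libraries, against 2552 and 2820 in controls. The higher KO library lay well under the lower control, and the log2 change was -0.60 ± 0.10 (SE; adjusted p 0.0125), or 1.52-fold lower. Without KO library 1 its adjusted p was 0.0636. Col15a1 had 664 and 651 in KO libraries, against 673 and 846 in controls, a change of -0.20 that did not pass. The gene Slc19a1 lies on the other strand within the span of Col18a1 but shares no exon bases with it.

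**Figure D3:**
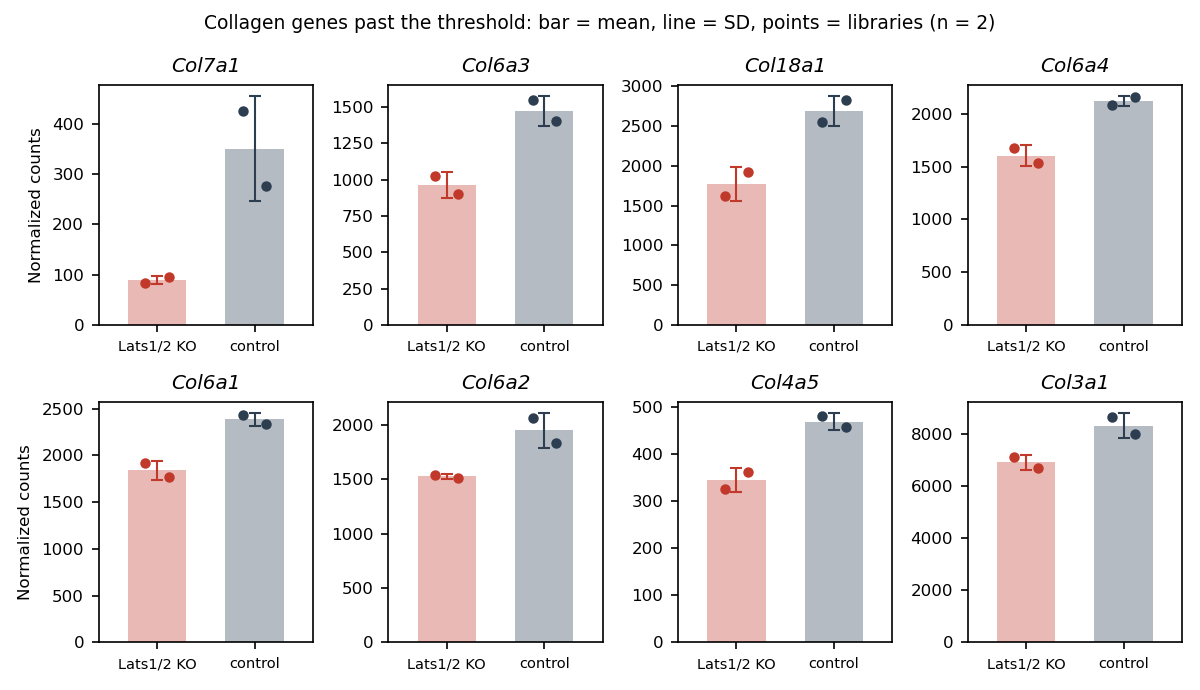
Normalized counts of the 8 collagens that fell, in each library (points), with the group mean (bar, from 0) and SD (line), n = 2 per group, KO left and control right. In each panel both KO points lie below both control points, from Col7a1 (84.2 and 94.9, against 424 and 277) to Col3a1 (7107 and 6710, against 8662 and 7989).

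Fibrillar collagens had the most reads of any class in sum, and 1 of their 10 genes fell. Col3a1, which forms the fine fibres of the gut wall, was the 1 fibrillar gene to fall, with 7107 and 6710 normalized counts in KO libraries, against 8662 and 7989 in controls. Its change of -0.27 ± 0.07 (SE) was 1.20-fold lower and close to the threshold (adjusted p 0.0464). It was lost in edgeR (adjusted p 0.0583), under scaling by library size (0.0579) and with no filter (0.0879), and without KO library 1, KO library 2 or control library 1.

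The type I chains did not pass. Col1a1 had 2845 and 2258 normalized counts in KO libraries, against 2987 and 2677 in controls, and the groups overlapped. The interval of its change ran from -0.47 to 0.16, so a fall of the size of Col3a1 lay within it. Col1a2 had 3650 and 2986 in KO libraries, against 4281 and 3867 in controls, with no overlap and a change of -0.30 (adjusted p 0.106). Col5a1 and Col5a2, whose chains nucleate type I fibrils, had changes of -0.26 and -0.27 (adjusted p 0.119 and 0.103), again with both KO libraries below both controls.

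The minor fibrillar genes were low and mixed. Col5a3, Col24a1, Col27a1, Col11a1 and Col11a2 overlapped between groups, with log2 changes between -0.42 for Col11a2 and 0.09 for Col5a3. Col2a1, the cartilage collagen, stayed below the level minimum, with 5 and 5 reads in KO libraries, against 2 and 0 in controls.

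None of the fibril-associated collagens passed. These FACIT chains coat the surface of fibrils and do not form fibrils themselves. By limma, edgeR and DESeq2 alike 0 of 8 were called, where 12.3% of all tested genes fell by limma. At an unadjusted limma p under 0.05, 3 were lower, where 6776 of the 16415 tested genes had such a p in either direction. The median change of the 8 was -0.32. Both KO libraries lay below both controls in 4 of them, where 33.4% of all tested genes did so. Col14a1, the highest of them per kb, had 512 and 605 normalized counts in KO libraries, against 791 and 669 in controls (log2 change -0.39, adjusted p 0.0782). Col12a1 had 463 and 421 in KO libraries, against 512 and 535 in controls (log2 change -0.25, adjusted p 0.112). In both the KO libraries lay below the controls. Col16a1 had 306 and 274 in KO libraries, against 293 and 274 in controls, and its change of 0.03 had an interval of -0.26 to 0.32.

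The other fibril-associated genes had few counts. Col22a1, a collagen of tissue junctions, had 13.9 and 14.5 normalized counts in KO libraries, against 24.8 and 21.7 in controls (log2 change -0.68, adjusted p 0.136). Col9a3, one chain of the cartilage heterotrimer, had 10.2 and 7.23 in KO libraries, against 22.8 and 14.9 in controls (log2 change -1.02, adjusted p 0.105). Its partners Col9a1 and Col9a2 and the gene Col20a1 overlapped between groups. Col9a3 shares 234 exon bases with Tcfl5, and since the strand setting is not given, reads of this pair cannot be told apart there. Col19a1 had at most 2 reads in any library.

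Transmembrane collagens sit in the plasma membrane and can shed their outer part. Col17a1, the collagen of hemidesmosomes, had 1.85 and 5.42 normalized counts in KO libraries, against 11.4 and 12.6 in controls. It passed the level minimum through the controls alone, and its change of -1.60 did not pass the test (adjusted p 0.0741). Col13a1 had 228 and 218 in KO libraries, against 234 and 301 in controls, a change of -0.25. Col23a1 and Col25a1 overlapped between groups, with changes of -0.42 and -0.06.

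The short-chain and unclassed genes made up the rest. Col8a1, a collagen of vessel walls and smooth muscle, had the highest change of all collagens, 0.30, with 229 and 165 normalized counts in KO libraries, against 120 and 208 in controls. Those ranges overlapped and the interval ran from -0.46 to 1.05. Col8a2, its partner, had a change of -0.56 at 18.5 and 9.94 counts in KO libraries, against 21.7 and 19.4 in controls. Col26a1 and Col28a1 overlapped between groups. Col10a1, the collagen of growth plate cartilage, had 1 and 3 reads in KO libraries, against 0 and 1 in controls. Nearest the level minimum from above were Col6a6, Col17a1, Col25a1, Col9a1 and Col9a3, and nearest from below were Col4a6 and Col2a1.

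Summed over each class, every class was lower in both KO libraries than in both controls, by different amounts. Type VI summed to 6329 and 5832 normalized counts in KO libraries, against 8323 and 7908 in controls, a difference of -25.1% between the means. The type IV sum was 10131 and 9754 in KO libraries, against 10423 and 11089 in controls, a difference of -7.56%. Fibrillar genes summed to 16130 and 14177 in KO libraries, against 18838 and 17272 in controls, a difference of -16.1%. The other collagens summed to 4553 and 4692 in KO libraries, against 6030 and 6482 in controls, a difference of -26.1%. These sums weight long and abundant genes most, and whether the classes differ from each other was not tested. All 40 collagens together took 0.132% and 0.118% of the reads in KO libraries, against 0.152% and 0.149% in controls. The median log2 change was -0.39 for type VI, -0.16 for type IV, and -0.25 for both fibrillar and other collagens.

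Chains that assemble together or whose genes are neighbours were also set against each other within each library, where scaling drops out. With 2 against 2 libraries the smallest exact two-sided permutation p is 0.333, so these ratios are given as values. Col6a3 over Col6a1 was 0.536 and 0.508 in KO libraries, against 0.636 and 0.599 in controls, while Col6a1 over Col6a2 was 1.24 and 1.17 in KO libraries, against 1.18 and 1.27 in controls. Within type VI, then, the Col6a3 ratio did not overlap between groups and the Col6a2 ratio did. Col1a1 over Col1a2 was 0.779 and 0.756 in KO libraries, against 0.698 and 0.692 in controls. Col4a1 over Col4a2 was 2.07 and 2.00 in KO libraries, against 1.87 and 1.94 in controls, and neither of these ratios overlapped. Col3a1 over Col5a2, neighbours on chromosome 1 that lie tail to tail 24614 bases apart, was 7.07 and 7.55 in KO libraries, against 7.20 and 7.44 in controls. No ratio is given for Col4a5 over Col4a6, since Col4a6 had so few reads.

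A few ratios were added after the values had been seen. Col4a5 over Col4a1 was 0.0499 and 0.0584 in KO libraries, against 0.0751 and 0.0656 in controls. Col18a1 over Col15a1 was 2.45 and 2.96 in KO libraries, against 3.79 and 3.33 in controls. Col7a1 over Col6a3 was 0.0820 and 0.106 in KO libraries, against 0.275 and 0.198 in controls. Col6a3 over Col3a1 was 0.145 and 0.134 in KO libraries, against 0.178 and 0.175 in controls. In each of these ratios the groups did not overlap (exact p 0.333). The pairs were picked with the changes of their genes known, so this lack of overlap tests nothing further.

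The neighbours of other collagens on the genome did not always share a call. Col4a1 and Col4a2 lie head to head on chromosome 8 and overlap by 22 bases, and neither passed. Col4a3 and Col4a4 start 71 bases apart on chromosome 1, and neither passed. Col6a2 and Col6a1 lie 85161 bases apart on chromosome 10 with no protein-coding gene between them, and both fell. Col18a1, 326009 bases beyond Col6a1, fell too. Col6a4, Col6a5 and Col6a6 stand in a row on chromosome 9, and of these Col6a4 fell.

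Because whole tissue was sequenced, fewer collagen-making cells and less collagen RNA per cell cannot be told apart. Pdgfra, Lum and Pdgfrb fell among 7 fibroblast markers tested, with log2 changes of -0.55, -0.45 and -0.35, where 12.3% of all tested genes fell. The other 4 did not pass, with -0.53 for Dpt, -0.39 for Dcn, -0.30 for Vim and 0.08 for Thy1, whose KO libraries lay above both controls. The 7 markers summed to 6549 and 6453 normalized counts in KO libraries, against 9201 and 8052 in controls. That count of 3 was 1 without KO library 1 and 0 without KO library 2. Smooth muscle markers gave 0 of 6 by limma, edgeR and DESeq2, and 0 at an unadjusted p under 0.05, with sums of 27283 and 19750 in KO libraries, against 24068 and 25754 in controls.

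Over all tested genes 12.3% fell and 15.2% rose, the shares to set beside the count of each marker list here. Of the 5 endothelial markers Pecam1 fell (log2 change -0.49), and their sums were 3351 and 3179 in KO libraries, against 3651 and 4368 in controls. Of the 5 enteric nerve markers S100b fell (log2 change -2.62), with list sums of 620 and 645 in KO libraries, against 2388 and 2621 in controls. Without S100b the other 4 summed to 321 and 244 in KO libraries, against 353 and 381 in controls. Of the 4 tested immune markers Ptprc and Lyz2 fell, with list sums of 7004 and 9623 in KO libraries, against 12142 and 12076 in controls. Among the 8 epithelial markers the keratins Krt8, Krt18, Krt19 and Krt20 rose, while Epcam, Cdh1, Vil1 and Cdx2 did not pass, and the sums were 190756 and 193086 in KO libraries, against 135344 and 126585 in controls. Of the 6 mesothelial and pancreatic markers, which tell of attached tissue, Msln rose (log2 change 1.64) and 5 did not pass. Msln had 1024 and 2596 normalized counts in KO libraries, against 646 and 422 in controls. The list summed to 1999 and 6109 in KO libraries, against 3842 and 2923 in controls. Its pancreatic genes differed between the KO libraries. Cpa1 had 173 and 1350 in KO libraries, against 974 and 752 in controls. Prss2 had 215 and 1177, against 1097 and 755, and Cela1 had 93.4 and 325, against 426 and 542. The other mesothelial markers, Upk3b and Wt1, had log2 changes of 0.05 and -0.19. The 3 cartilage and bone markers analysed here summed to 29.6 and 55.1 in KO libraries, against 22.8 and 16.0 in controls. No marker with a row was at 0 in all libraries, and the part of these cell types in the collagen results was not tested.

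The collagens were also set against the mean log2 level of the 7 fibroblast markers in the same library, a comparison added after the values had been seen. The markers themselves averaged a change of -0.36. On this scale 7 collagens had both KO libraries below both controls, 8 had both above, 25 overlapped, and the median difference was 0.10. No share over all tested genes is given on this scale. Whether the counts of 7 and 8 differ from what no difference would give was therefore not tested. The 7 include Col17a1, which passed the level minimum through the controls alone. Of the 21 collagens with both KO libraries below both controls on the deposited scale, 7 stayed so, 12 overlapped, and 2, Col3a1 and Col4a2, had both KO libraries above. The other 6 that lay above had overlapped on the deposited scale. Col7a1 kept most of its difference, at -1.57 log2 units, and Col6a3, Col18a1 and Col4a5 stood at -0.26, -0.24 and -0.09, each without overlap (exact p 0.333). Col6a4, Col6a1 and Col6a2 stood at -0.05, -0.02 and 0.01 and overlapped. Col3a1 stood at 0.09, with both KO libraries above both controls.

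**Figure D4:**
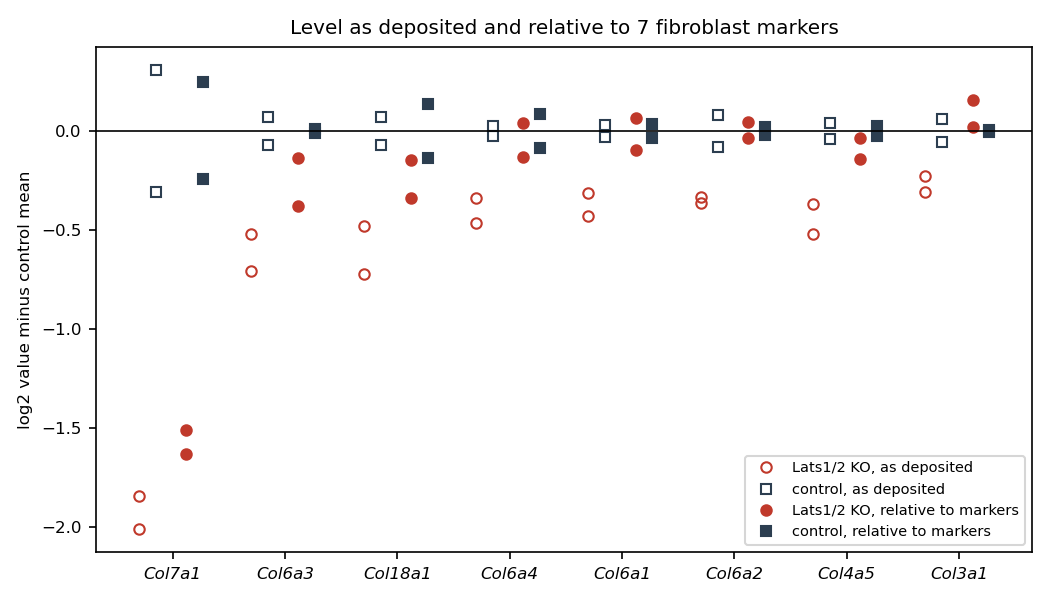
The 8 collagens that fell, in each library, as log2 value minus the control mean: open symbols on the deposited scale (log2 of normalized count + 1), filled symbols after subtracting the mean log2 level of the 7 fibroblast markers; red circles are KO, dark squares control. On the marker scale the KO circles of Col7a1 stay at -1.63 and -1.51, while those of Col6a1, Col6a2 and Col6a4 lie on both sides of the control mean, Col6a1 at 0.066 and -0.097.

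The sequence before each gene's start was read for short motifs of general and Hippo-linked factors, because YAP and TAZ, which Lats1 and Lats2 restrain, bind DNA through TEAD proteins. The windows were the 250 bases before RefSeq starts in GRCm38.p6. The TEAD motif was searched as GGAATG, and that of AP-1, a frequent partner of TEAD, as TGANTCA. The SP motif, the GC box of many promoters, was searched as GGGCGG. The core promoter elements searched were the TATA box, as TATAAA, and the CCAAT box by those letters. Both strands were read, and no motif lies within another. The windows of Col7a1, at chr9:108953336-108953585 on the plus strand, of Col6a3, at chr1:90843972-90844221 on the minus strand, and of Col3a1, at chr1:45311288-45311537 on the plus strand, are shown 5′ to 3′ because each had the smallest adjusted p of its class (other, type VI and fibrillar) and its window holds no annotated exon. Capitals mark motif matches.
Col7a1: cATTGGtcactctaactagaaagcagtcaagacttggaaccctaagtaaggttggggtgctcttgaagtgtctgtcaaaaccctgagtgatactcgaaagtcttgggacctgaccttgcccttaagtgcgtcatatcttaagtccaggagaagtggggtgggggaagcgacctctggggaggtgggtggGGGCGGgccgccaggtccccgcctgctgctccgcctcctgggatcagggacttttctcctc
Col6a3: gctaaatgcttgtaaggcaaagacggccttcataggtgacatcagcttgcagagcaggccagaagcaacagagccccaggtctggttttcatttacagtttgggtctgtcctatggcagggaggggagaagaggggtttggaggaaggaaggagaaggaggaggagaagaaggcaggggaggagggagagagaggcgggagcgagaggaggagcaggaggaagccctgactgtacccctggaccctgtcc
Col3a1: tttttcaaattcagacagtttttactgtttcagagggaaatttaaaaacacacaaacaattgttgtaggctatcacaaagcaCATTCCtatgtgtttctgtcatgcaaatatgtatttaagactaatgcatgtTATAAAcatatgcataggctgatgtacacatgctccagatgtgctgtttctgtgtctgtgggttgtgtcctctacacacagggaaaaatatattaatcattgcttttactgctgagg
Col7a1 held an SP match starting 61 bases before the start and a CCAAT match (on the other strand) at 249. Col3a1 held a TEAD match, CATTCC on the printed strand, at 168 and a TATA match at 117. Col6a3 held no match, which says only that these letters are not in this window. Of the 40 collagens, 32 had a window in the table, in 35 windows. Among those 35, the TEAD motif was in 4, or 11.4%, where 12.6% of all 32851 windows held it. AP-1 was in 1, or 2.86%, where 6.75% of all windows held it. SP was in 21, or 60.0%, where 32.7% of all held it. The TATA motif was in 4 (11.4%, all windows 12.4%) and CCAAT in 13 (37.1%, all windows 33.8%). The median GC content was 59.6% in collagen windows, against 52.4% in all windows. The 10 windows of the 8 fallen genes held TEAD in 3, AP-1 in 1, SP in 6, TATA in 1 and CCAAT in 4. Of the 3 TEAD windows, that of Col3a1 holds no annotated exon. Those of Col6a2 and Col18a1 are mostly annotated exon, 226 and 241 of 250 bases. The AP-1 window, of Col6a1, holds 124 such bases.

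Of 18 genes that build collagen inside the cell, 5 rose and 13 did not pass, where 15.2% of all tested genes rose. Their median change was -0.03, and whether they differ from the collagens was not tested. Colgalt1, which puts galactose on hydroxylysines of collagen chains, had 3683 and 4252 normalized counts in KO libraries, against 1423 and 1349 in controls (log2 change 1.51 ± 0.09, adjusted p 0.0007, 2.86-fold). P4ha3, a prolyl hydroxylase subunit, had 58.3 and 117 in KO libraries, against 20.7 and 19.4 in controls (log2 change 1.99, adjusted p 0.0150).

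Crtap and Serpinh1, a prolyl 3-hydroxylation cofactor and the collagen chaperone Hsp47, rose by 0.49 and 0.42 log2 units (adjusted p 0.0193 and 0.0264). The fifth was Plod3, a lysyl hydroxylase, with 0.41, named here after its value was seen. Of the 5 rises 2 were left without KO library 1 and 2 without KO library 2. The main prolyl hydroxylase pair P4ha1 and P4hb had changes of -0.25 and -0.14 and did not pass.

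Outside the cell, 1 of 12 tested genes for processing and crosslinking rose, where 15.2% of all tested genes rose. It was Pcolce, which speeds the removal of the procollagen C-propeptide, with 526 and 809 normalized counts in KO libraries, against 406 and 337 in controls (log2 change 0.82, adjusted p 0.0443). The call was lost without KO library 2, control library 1 or control library 2. The crosslinking oxidase Lox had 352 and 240 in KO libraries, against 346 and 344 in controls (log2 change -0.25, adjusted p 0.384).

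Among 14 tested proteases, uptake receptors and inhibitors, 1 rose and 3 fell, where 15.2% of all tested genes rose and 12.3% fell. Mmp15, a membrane-bound metalloproteinase, had 3668 and 4207 normalized counts in KO libraries, against 1099 and 1841 in controls (log2 change 1.46, adjusted p 0.0105). That call was lost without KO library 2 (adjusted p 0.0627). Mmp2, its inhibitor Timp2 and its activator Mmp14 fell, with changes of -0.39, -0.35 and -0.26 (adjusted p 0.0385, 0.0389 and 0.0475). The Mmp14 call was lost under DESeq2 (adjusted p 0.0788) and when any 1 library was left out, and those of Mmp2 and Timp2 when KO library 1, KO library 2 or control library 1 was.

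Receptors for collagen moved in both directions. Of 9 tested 1 rose and 4 fell, where 15.2% of all tested genes rose and 12.3% fell. Ddr1, the discoidin receptor kinase of epithelia, had 2740 and 3202 normalized counts in KO libraries, against 1190 and 1175 in controls (log2 change 1.32, adjusted p 0.0010). Itga2, a collagen-binding integrin subunit, had 643 and 617 in KO libraries, against 924 and 978 in controls (log2 change -0.59, adjusted p 0.0056). Both calls held when any 1 library was left out.

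Lair1, an inhibitory collagen receptor of leukocytes, had 167 and 167 normalized counts in KO libraries, against 288 and 294 in controls (log2 change -0.79, adjusted p 0.0070). Antxr2, a receptor that binds collagen types IV and VI, had 2069 and 1710 in KO libraries, against 2868 and 2536 in controls (log2 change -0.52, adjusted p 0.0257). The fourth was Ddr2, the discoidin receptor of mesenchymal cells, with a change of -0.40, named after its value was seen. Itgb1, the shared partner of collagen-binding integrins, had a change of 0.31 and did not pass (adjusted p 0.0831). Without KO library 2, and likewise without control library 1, 2 of the 4 falls were left.

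**Figure D5:**
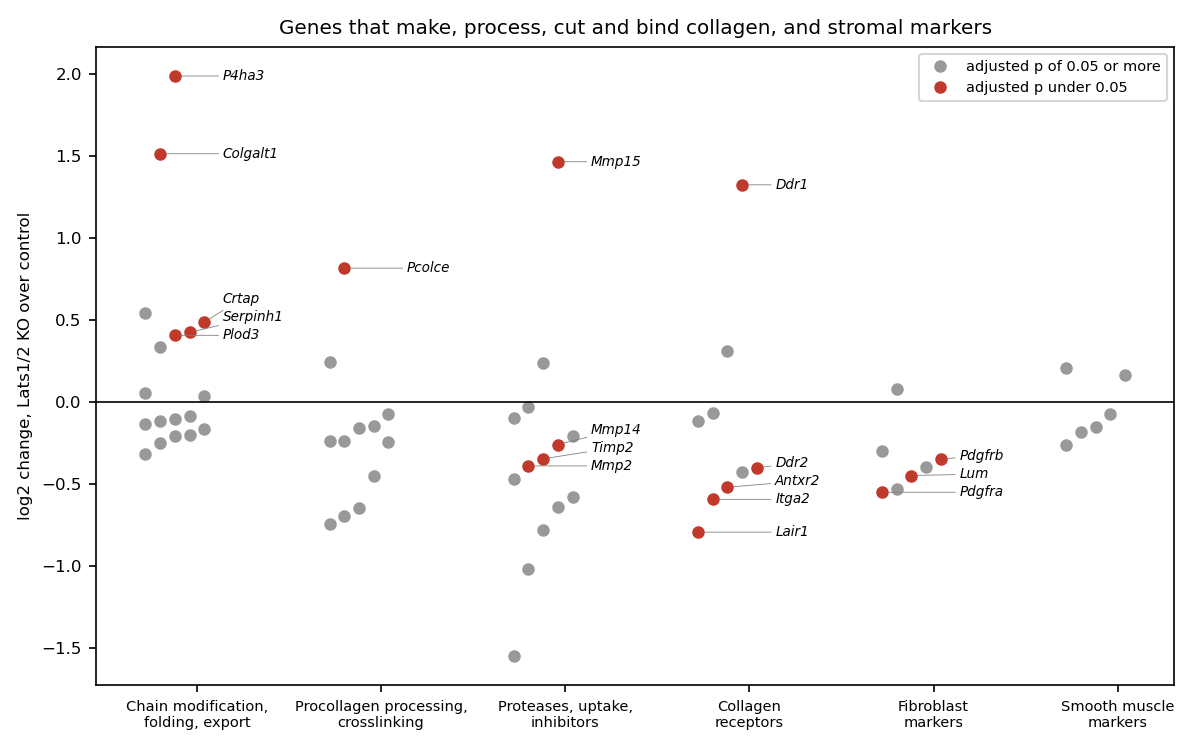
Log2 change, Lats1/2 KO over control, of each tested gene in the collagen-related lists and of fibroblast and smooth muscle markers, 1 point per gene, red with a name where the adjusted p was under 0.05. Colgalt1 (1.51), P4ha3 (1.99), Mmp15 (1.46) and Ddr1 (1.32) stand above the rest, and the red fibroblast markers lie between -0.55 and -0.35.

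The authors' deposited table, which tested the same libraries with DESeq2 and shrunken fold changes, called 8 collagens lower and 0 higher at the same threshold, and these were the same genes. Col7a1 stood at -1.87 in the authors' deposited table, with 2.58e-10 as its adjusted p. The weakest calls in the authors' deposited table were Col3a1, at an adjusted p of 0.0308, and Col4a5, at 0.0492. Since it rests on the same reads, it adds no independent measurement.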

How the data were processed

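RNA-seq of 4 small intestine libraries was analysed. Per the submitters' processing notes the authors used STAR, featureCounts, DESeq2 and the build GRCm38. Tool versions, the strand setting and the treatment of multi-mapping reads were not stated there. The deposited table holds a normalized signal per library, made by the authors from gene counts with 1 size factor for each library, as the headers and values show. Whole reads were recovered for 100% of values within 0.001 reads. It also holds the authors' log2 fold change, a linear fold ratio and an adjusted p-value. Column names give each library's group but not its replicate, so libraries were numbered in column order, as names only.

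The planned test for normalized values was used: limma-trend (limma 3.58.1, R 4.3.3) on log2(value + 1), which understates changes of low genes, on 16415 genes with at least 10 in at least 2 libraries (2 residual and 3.53 prior degrees of freedom). Alternatives were edgeR 4.0.16 and DESeq2 1.42.0 on the recovered reads, library-size and TMM scaling, a pseudocount of 10, a mean of at least 50, no filter, and leaving out each library. Gene models came from GENCODE M21; all 41 rows matched. Libraries of 1 group differed by more than sampling noise (chi-square per degree of freedom 14.9 in KO and 22.6 in control). Every collagen was named, and up to 4 called genes of each related list by smallest adjusted p. Members, lists and classes were chosen with earlier results of these data known.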

Additional observations from a re-analysis of the deposited data

How the results depend on the processing

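The count of collagens lower in Lats1/2 KO was 8, and it was 8 under DESeq2, TMM scaling, a pseudocount of 10 and the stricter filter, 7 under edgeR and under library-size scaling, 5 with no filter on low genes, which adds genes to the adjustment, and 2 to 8 when 1 library was left out. The 7 without control library 1 includes Col15a1 and Col23a1, and the 8 without control library 2 includes Col14a1, none of which passed with all libraries. The count of higher collagens was 0 under each of these. The count of all genes called was 4508, with 4568 under edgeR on the recovered reads and 1869 to 3754 when 1 library was left out. A group left with 1 library was assumed to vary like the other group.

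With 1 library left out, directions turned only in collagens that had not passed, over these ranges of log2 change: Col11a1 -0.52 to 0.45, Col11a2 -0.92 to 0.078, Col16a1 -0.050 to 0.11, Col1a1 -0.32 to 0.0088, Col20a1 -0.39 to 0.50, Col25a1 -0.18 to 0.070, Col26a1 -0.71 to 0.43, Col28a1 -0.76 to 0.25, Col4a3 -0.67 to 0.029, Col4a4 -0.024 to 0.58, Col5a3 -0.0098 to 0.19, Col6a6 -0.22 to 0.64, Col8a1 -0.10 to 0.69 and Col9a1 -0.45 to 0.59. Col9a1 also turned to -0.0060 under edgeR and -0.026 under DESeq2. The cause was not tested. Other counts also moved. With no filter, type IV and fibrillar falls were 0 and 0 (1 and 1), intracellular machinery rises 3 (5), Pcolce's list 0 rises (1), protease list falls 0 (3) and receptor falls 2 (4), with the counts under the filter in brackets. Under DESeq2 receptor rises were 2 and extracellular falls 1. With 1 library left out, falls among other collagens were 1 to 4, protease list falls 1 to 3, endothelial falls 0 to 2, immune falls 1 to 2 and smooth muscle falls 0 to 1. No paired analysis was possible because the columns carry no replicate number of the labels. With 2 libraries per group and recovered depths of 25135964 to 32361940 reads, low collagens could pass only with large changes.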
